A study of Mus musculus with 4 samples.

Results

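The transporters described here carry drugs, bile pigments and hormone conjugates into and out of the hepatocyte. They comprise 4 uptake carriers of the Slco family (Slco1a1, Slco1a4, Slco1b2 and Slco2b1) and 5 ATP-driven efflux pumps (Abcc2, Abcc3, Abcc4, Abcg2 and Abcb1a). The members were every probe other than control spots whose gene name on the array is one of these symbols. This gave 13 probes, 5 of uptake and 8 of efflux genes, out of 41174 probes and 9 of 27968 gene names. The livers came from 4 female BALBc mice, 2 of the group labelled control and 2 of the group labelled LB1, taken 20 days after inoculation. Each liver's total RNA was labelled with Cy3 and read on 1 array. Strain, sex and tissue are shared by both groups, and the labels give neither age, nor what LB1 stands for, nor what the control mice received. The source of the LB1 samples is given as a stuff mouse. By its title, the series concerns effects of a Lactobacillus from ostrich on the weight, gut bacteria and metabolism of mice.

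Hepatocytes take up organic anions from sinusoidal blood through organic anion transporting polypeptides, which the Slco genes encode, and organic ions through the Slc22 carriers. After oxidation and conjugation the products leave through ABC pumps. Abcc2, Abcg2 and Abcb1a sit at the canalicular membrane and export into bile, whereas Abcc3 and Abcc4 sit at the basolateral membrane and return conjugates to blood. The xenobiotic receptors PXR (gene Nr1i2) and CAR (gene Nr1i3), the aryl hydrocarbon receptor Ahr and the antioxidant factor NRF2 (gene Nfe2l2) are known to raise several of these genes.

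The sequences of 3 probes are shown because they carry the clearest differences, or a difference between probes of 1 gene. Both Abcg2 probes have 1 reading frame without a stop, as most of the transporter probes do. They match mm9 at chr6:58640579-58642261 and chr6:58628344-58633274, spans of 1683 and 4931 bases for 60 bases of probe, so each match is split on the genome. The Abcc3 probe matches mm9 at chr11:94225685-94225744, has 1 reading frame without a stop, and lies 3031 bases nearer the start of the transcript than the other Abcc3 probe.
Abcg2, downstream probe: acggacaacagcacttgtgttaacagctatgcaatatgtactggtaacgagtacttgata
Abcg2, upstream probe: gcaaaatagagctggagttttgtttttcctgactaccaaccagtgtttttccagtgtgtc
Abcc3, upstream probe: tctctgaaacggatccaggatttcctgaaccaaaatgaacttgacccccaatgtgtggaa

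RefSeq promoter windows of assembly GRCm38.p6, 250 bases before each start site, were found for 8 of the 9 genes (13 windows). Abcc3 has no entry. The windows of Abcg2, Slco1a4 and Abcc4 are shown because these genes passed as lower at a probe well above background on all 4 arrays. Of 2 Abcc4 windows the one with matches to 2 of the motifs is printed. Capitals mark matches on either strand to TGACNNNGC (the NRF2 core), GCGTG (the Ahr core) or AGTTCA (a half-site of PXR and CAR). The Abcg2 windows lie on the plus strand at chr6:58584283-58584532, chr6:58596422-58596671 and chr6:58640296-58640545. The Slco1a4 window is at chr6:141856221-141856470 and the printed Abcc4 window at chr14:118706220-118706469, both on the minus strand.
Abcg2, start site 1: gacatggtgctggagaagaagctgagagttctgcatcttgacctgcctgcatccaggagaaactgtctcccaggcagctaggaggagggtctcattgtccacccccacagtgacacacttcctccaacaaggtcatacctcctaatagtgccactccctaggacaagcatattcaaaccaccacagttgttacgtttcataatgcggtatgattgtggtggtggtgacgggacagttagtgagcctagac
Abcg2, start site 2: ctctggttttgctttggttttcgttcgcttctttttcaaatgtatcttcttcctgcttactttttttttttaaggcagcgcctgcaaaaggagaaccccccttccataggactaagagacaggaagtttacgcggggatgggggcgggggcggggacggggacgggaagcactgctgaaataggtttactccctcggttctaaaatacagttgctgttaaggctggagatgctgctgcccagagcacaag
Abcg2, start site 3: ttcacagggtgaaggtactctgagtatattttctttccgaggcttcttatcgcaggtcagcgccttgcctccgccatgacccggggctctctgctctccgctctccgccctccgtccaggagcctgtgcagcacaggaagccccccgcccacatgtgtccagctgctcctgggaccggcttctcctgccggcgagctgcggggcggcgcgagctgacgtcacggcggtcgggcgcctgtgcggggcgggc
Slco1a4: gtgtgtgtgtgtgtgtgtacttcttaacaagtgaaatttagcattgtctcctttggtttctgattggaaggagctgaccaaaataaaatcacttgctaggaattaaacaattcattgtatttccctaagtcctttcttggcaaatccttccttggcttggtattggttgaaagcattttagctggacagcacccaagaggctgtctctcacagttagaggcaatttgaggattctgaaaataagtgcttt
Abcc4, start site 2: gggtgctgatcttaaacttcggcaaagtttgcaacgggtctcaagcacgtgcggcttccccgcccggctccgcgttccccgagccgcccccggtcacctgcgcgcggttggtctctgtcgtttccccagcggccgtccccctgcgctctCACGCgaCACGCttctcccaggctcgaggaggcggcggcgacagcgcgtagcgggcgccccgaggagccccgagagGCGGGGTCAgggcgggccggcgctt
None of the 3 motifs is in the 3 Abcg2 windows or in the Slco1a4 window. The NRF2 core was in the window of Abcc2 and in both windows of Abcc4, and in 10.2% of all 32851 windows of this length. The Ahr core was in 1 member window, of Abcc4 (28.2% of all windows). The half-site of PXR and CAR was in windows of Abcb1a, Slco1b2 and Slco2b1 (11.8%). A match is a run of letters in the window and no measurement of binding.

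LB1 arrays were dimmer as a whole, with 75th percentiles of processed signal of 147 and 80.8 (replicates 1 and 2) against 411 and 415 for control. Raw signal was lower on both LB1 arrays than on both control arrays at 11 of the 13 transporter probes. The share of all probes was not counted, so with dimmer arrays this is not read as a trait of the transporters. Values below are therefore log2 of the processed signal minus log2 of that array's 75th percentile, called relative level, and they do not give total RNA. After this scaling the median of all 22974 tested probes was 0.16 higher on the LB1 arrays. Relative levels of different probes are not comparable with each other. All 13 transporter probes were well above background on both control arrays and were tested, and 11 were so on all 4 arrays. Arrays of the same replicate number, 1 control and 1 LB1, shared a slide, so differences within slide 1 and slide 2 are given beside the pooled ones.

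The clearest transporter differences were falls at Abcg2 and at Slco1a4. By limma over all tested probes, at an adjusted p under 0.05, 6 of 13 transporter probes passed, against 32.4% of all probes. Of these 5 were lower in LB1 (background 13.2%) and 1 was higher (19.2%). This split depends on the scaling. With normexp 4 transporter probes were higher and 4 lower (71.0% of all called probes were higher, against 59.3% in the main fit). With quantile normalization it was 0 and 5 (38.2%), with the array median as reference 1 and 6 (18.9%), with cyclic loess 0 and 5 (42.0%), and on the series table values 3 and 5 (74.0%). The share of all probes called was 69.6% with normexp and 62.9% on the series table values, where 8 of 13 transporter probes passed each time. It was 28% with quantile normalization, 38.2% with the array median as reference and 30% with cyclic loess. The 5 lower probes of the main fit belong to Slco1a4, Abcc4, Abcb1a and both probes of Abcg2. The 1 higher probe, of Slco1b2, was saturated on the control arrays and has no settled direction. At 10 of 13 probes the LB1 arrays did not overlap the control arrays in relative level, which was so at 76.1% of all tested probes. At 10 of 13 the difference had the same sign on both slides, and the share of all probes with this was not counted. With a single control array left, only the LB1 arrays give a spread, which the remaining control array is assumed to share. Then almost all calls over the array were lost, the transporter calls among them, whether control replicate 1 or control replicate 2 was left out. The methods' t-test with its 2-fold minimum took 4 of the 13, namely Slco1b2, Abcg2 at both probes and Abcb1a (17.9% of all probes), and 0 after Benjamini-Hochberg adjustment. An exact two-sided permutation test of a single probe has 6 assignments of the arrays and cannot go below 0.333. In whole liver, fewer cells of a type and less RNA per cell cannot be told apart.

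**Figure D1:**
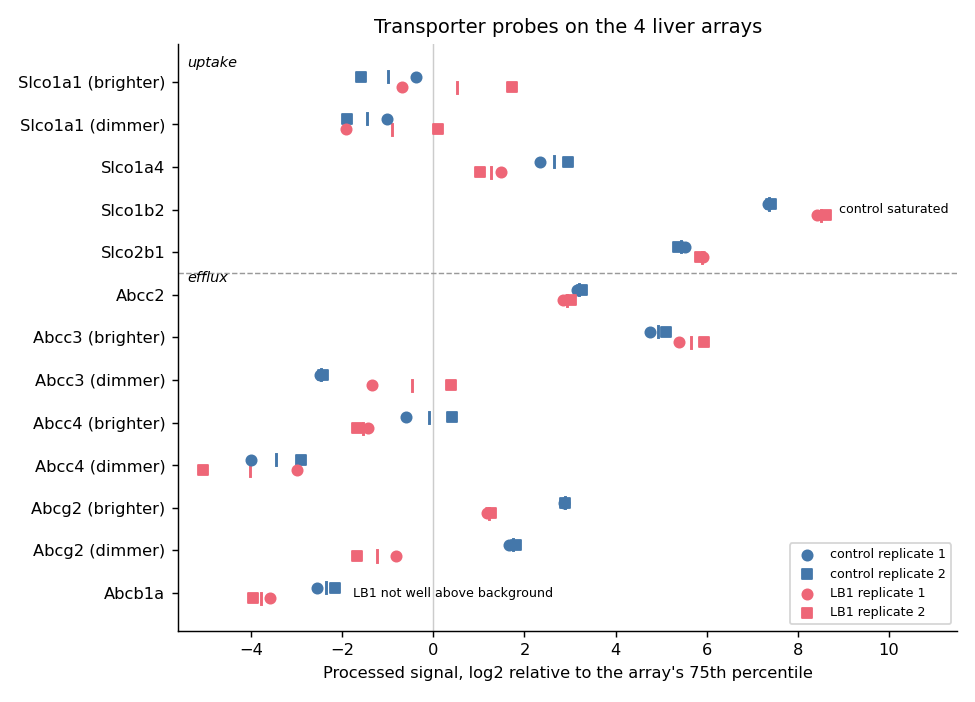
Relative level (log2 of processed signal over the array's 75th percentile, x axis) of the 13 transporter probes on the 4 arrays. Points are arrays, circles replicate 1 and squares replicate 2, and vertical ticks are group means. The LB1 points of both Abcg2 probes and of Slco1a4 lie below the control points, and the points of Slco1a1 and of the dimmer Abcc4 probe overlap. Positions of different probes cannot be compared with each other.

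Abcg2, the breast cancer resistance protein that exports sulphate conjugates, urate and many drugs into bile, was lower in LB1 at both of its probes. The processed signal of the downstream probe was 3015 and 3061 on the control arrays and 334 and 193 on the LB1 arrays. Relative level was 2.88 ± 0.01 in control and 1.22 ± 0.05 in LB1 (SD, n = 2 each), with a wide gap between the groups and little spread within them. The difference fell by 1.66 on the log2 scale (SE 0.21, adjusted p = 0.0211), or 3.16-fold, with -1.69 on slide 1 and -1.63 on slide 2. The upstream probe read 1302 and 1468 against 82.8 and 25.5, or 1.74 ± 0.11 against -1.25 ± 0.59. It fell by 2.99 (SE 0.34, adjusted p = 0.0201), or 7.94-fold, with -2.49 and -3.49 on the slides. Both probes stayed lower and past the threshold under each of 9 other ways of scaling, filtering or fitting, with ranges of -2.29 to -1.66 and -3.62 to -2.02. Without control replicate 1 and without control replicate 2 the differences were -1.66 and -1.65 downstream and -3.07 and -2.91 upstream, and both probes missed the threshold there (adjusted p up to 0.133 and 0.118).

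The probes of Abcg2 lie 523 bases apart on 1 transcript, and the upstream one differed by 1.33 log2 units more. For Abcc3 the upstream probe was 1.25 higher in its difference than the downstream one. Across 2970 accessions with probes at least 500 bases apart the upstream minus downstream difference had a median of -0.12, with quartiles of -1.03 and 0.80. The Abcg2 and Abcc3 pairs lay outside these quartiles, on opposite sides. The place of the Abcc4 pair is not determined, because its dimmer probe was not well above background on 1 LB1 array.

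Abcc2, the canalicular pump for bilirubin glucuronides and glutathione conjugates, did not pass the test. It read 3628 and 3969 on the control arrays and 1049 and 652 on the LB1 arrays (chr19:43912079-43912138). The groups did not overlap, at 3.20 ± 0.08 against 2.92 ± 0.12 in relative level. The difference was -0.28 (SE 0.22, 95% interval -0.83 to 0.28, adjusted p = 0.351), with -0.31 and -0.25 on the slides. It was -0.75 and past the threshold with normexp background correction (adjusted p = 0.00504), and -0.55 on the series table values (adjusted p = 0.0265).

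Abcb1a encodes 1 of the mouse P-glycoproteins, which export bulky hydrophobic drugs. Its probe (chr5:8747979-8748038) read 70.4 and 92.5 on the control arrays and 12.3 and 5.17 on the LB1 arrays, where it was not well above background. With the lowest signal well above background in place of lower values, it was at least 2.15-fold lower in LB1, and the fit of the measured values gave -1.42 (SE 0.27, adjusted p = 0.0253), with -1.03 and -1.80 on the slides. The sign turned with normexp, to 0.62 (adjusted p = 0.0103), and on the series table values, to 0.26 (adjusted p = 0.290). The direction at Abcb1a therefore depends on how background is treated. The call was also lost without control replicate 1 (adjusted p = 0.0916) and without control replicate 2 (adjusted p = 0.169). Its neighbour Abcb1b, the other P-glycoprotein gene of mouse, differed by -0.44 and did not pass (adjusted p = 0.194).

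The basolateral pumps Abcc3 and Abcc4 did not move alike. Abcc3 returns glucuronides to blood. At its brightest probe (chr11:94204671-94204730) it read 11112 and 14322 on the control arrays and 6142 and 4972 on the LB1 arrays, or 4.93 ± 0.25 against 5.66 ± 0.39 in relative level. Both LB1 arrays were above both control arrays after scaling. The difference of 0.73 did not pass (SE 0.29, 95% interval -0.02 to 1.49, adjusted p = 0.110), and was 0.63 and 0.83 on the slides. Without LB1 replicate 1 it was 1.01 and passed (adjusted p = 0.0407). The upstream Abcc3 probe was dim, at 72.9 and 77.3 against 58.2 and 105.1. Its difference of 1.98 (SE 0.58) missed the threshold in the main fit (adjusted p = 0.0551) and passed with the replicate block (adjusted p = 0.0400), with 1.16 and 2.80 on the slides. It passed under 6 of the 9 other ways of scaling, filtering or fitting. It missed with quantile normalization (1.80, adjusted p = 0.0949), with cyclic loess (1.94, adjusted p = 0.0740) and without a filter (adjusted p = 0.0530). The difference was 2.84 without LB1 replicate 1 and 1.12 without LB1 replicate 2. Without control replicate 1 and without control replicate 2 it was 1.95 and 2.02.

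Abcc4 exports bile acids together with glutathione, and cyclic nucleotides. Its brightest probe (chr14:118882104-118882163) read 271 and 551 on the control arrays and 54.8 and 25.3 on the LB1 arrays, or -0.10 ± 0.72 against -1.55 ± 0.18. Both LB1 arrays lay below both control arrays, which themselves differed by 1.01, more than the control arrays differed at 96.1% of tested probes. It fell by 1.45 (SE 0.39, adjusted p = 0.0452, 0.0499 with the replicate block), or 2.74-fold, with -0.82 and -2.09 on the slides. The call was lost with normexp, at -0.74 (adjusted p = 0.0916), and without any 1 of the 4 arrays (adjusted p of 0.0685 to 0.228). The dimmer Abcc4 probe read 25.6 and 55.2 against 18.5 and 2.45, was well above background on 1 of 2 LB1 arrays, and overlapped between groups. Its difference of -0.56 did not pass (95% interval -2.53 to 1.41, adjusted p = 0.589). It had opposite signs on the slides (1.02 and -2.13), and was higher in LB1 with normexp (1.16, adjusted p = 0.00264).

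**Figure D2:**
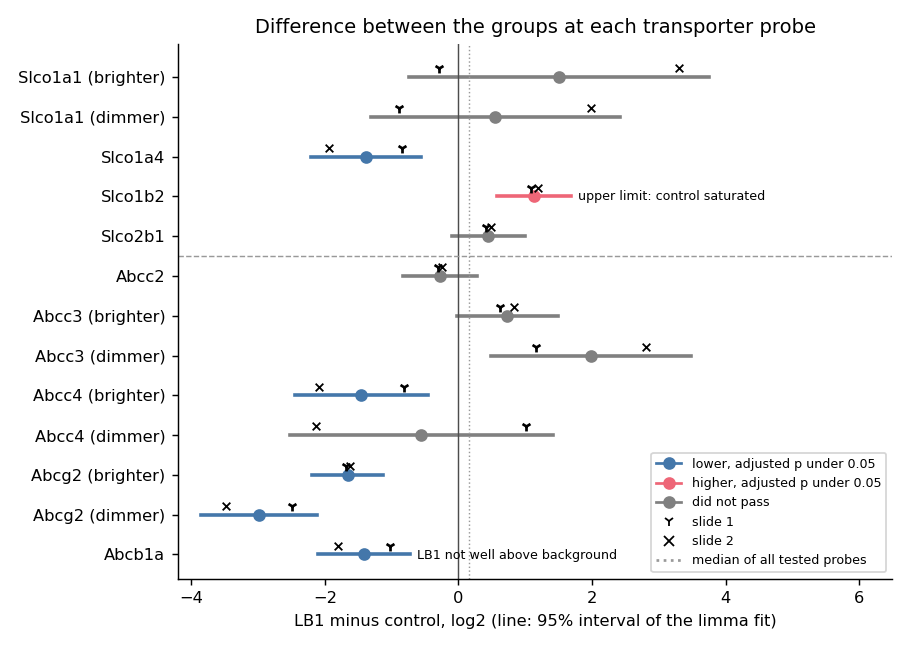
LB1 minus control (log2, x axis) for each transporter probe, with the 95% interval of the limma fit as a line, the slides as black marks and the median of all tested probes (0.16) as a dotted line. Both Abcg2 intervals, to -1.12 and -2.12 at their upper ends, lie wholly below 0, and the marks of Slco1a1 stand on both sides of 0. Blue is lower and red higher at an adjusted p under 0.05, and the Slco1b2 value is an upper limit.

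Among the uptake carriers Slco1a4 was lower, Slco1b2 could not be read, and Slco1a1 and Slco2b1 did not pass. Slco1a4 carries digoxin, bile acids and organic anions, and is known as a target of PXR. Its probe (chr6:141754675-141754734) read 2067 and 3218 on the control arrays and 412 and 164 on the LB1 arrays. Relative level was 2.64 ± 0.44 against 1.26 ± 0.33, without overlap. It fell by 1.39 (SE 0.32, adjusted p = 0.0341), or 2.62-fold, with -0.84 on slide 1 and -1.93 on slide 2. It stayed lower and past the threshold under each of the 9 other ways of scaling, filtering or fitting (-2.02 to -1.39). It missed the threshold without control replicate 1, without control replicate 2 and without LB1 replicate 2, with differences from -1.70 to -1.07 over the 4 arrays left out.

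Slco1b2 is the liver's main carrier of bilirubin conjugates, statins and unconjugated bile acids. Its probe (chr6:141634476-141634535) read 66347 and 70835 on the control arrays, where it was saturated, and 50174 and 31478 on the LB1 arrays. Raw signal was thus lower in LB1 and relative level higher, 8.51 ± 0.13 against 7.38 ± 0.06. The fitted difference of 1.14 (adjusted p = 0.0254) is only an upper limit, because the control values are lower limits. With quantile normalization it was -0.19 (adjusted p = 0.469), and with cyclic loess, added after the data were seen, 0.34 (adjusted p = 0.231). The direction at Slco1b2 was not determined.

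Slco2b1 carries steroid sulphates and is widely expressed. Its probe (chr7:106807008-106807067) read 18762 and 17102 on the control arrays and 8900 and 4653 on the LB1 arrays. Relative level was 5.44 ± 0.10 against 5.88 ± 0.05, without overlap. The difference of 0.45 did not pass (SE 0.21, 95% interval -0.10 to 0.99, adjusted p = 0.157), and it was 0.41 and 0.48 on the slides. It lay on the other side of 0 with normexp (-0.12), with the array median as reference (-0.19) and with cyclic loess (-0.031).

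Slco1a1, a carrier of sulphated steroids and bile acids known to be higher in livers of male than of female mice, varied most of the 9 genes between animals of a group. Its brightest probe (chr6:141857413-141857472) read 314 and 139 on the control arrays and 91.7 and 267 on the LB1 arrays. LB1 replicate 2 was the highest of the 4 in relative level and LB1 replicate 1 lay between the controls, so the groups overlapped. The LB1 arrays differed by 2.40 in relative level and the control arrays by 1.19, larger gaps than at 99.2% and 97.3% of tested probes. The difference of 1.51 did not pass (SE 0.87, 95% interval -0.74 to 3.75, adjusted p = 0.224), and was -0.29 on slide 1 and 3.30 on slide 2. Without LB1 replicate 1 it was 2.71 and passed (adjusted p = 0.0304). The second probe, 380 bases downstream, read 202 and 112 against 39.0 and 86.6 and had the same order of arrays within each group. Its difference was 0.55 (95% interval -1.31 to 2.41, adjusted p = 0.574), with -0.89 and 1.99 on the slides.

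**Figure D3:**
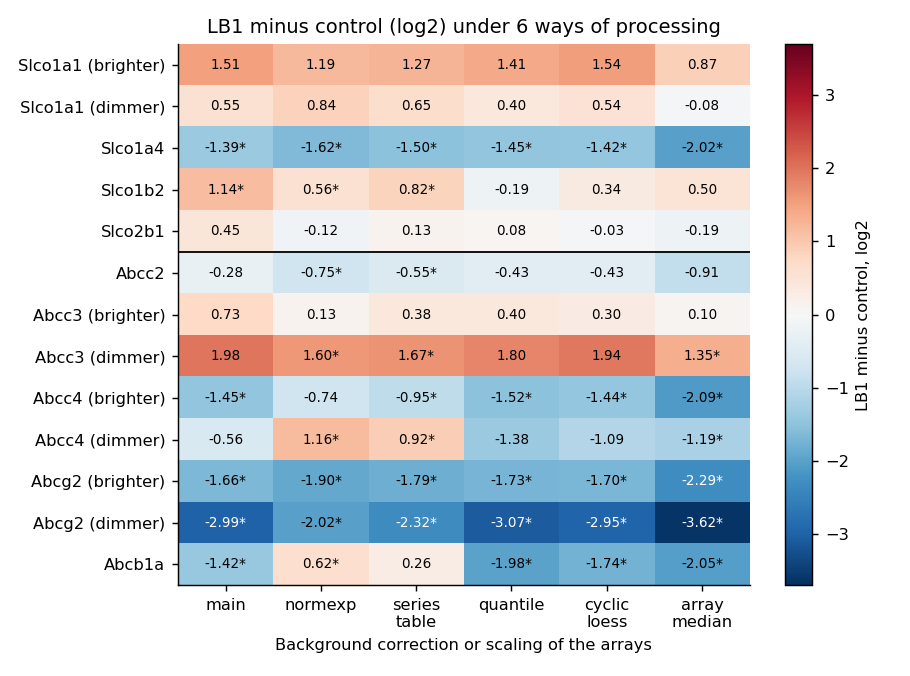
LB1 minus control (log2, number and colour) for the 13 transporter probes (rows, uptake above the line) under 6 ways of background correction or scaling (columns). An asterisk is an adjusted p under 0.05. Both Abcg2 probes and Slco1a4 are negative in each column, while Abcb1a and the dimmer Abcc4 probe turn positive with normexp and on the series table values, Slco1b2 turns negative with quantile normalization, and Slco2b1 lies near 0.

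With 1 probe per gene, the brightest, the efflux pumps lay lower than the uptake carriers. Of 5 efflux genes 3 passed as lower and 0 as higher, against 9.78% and 21.7% of all 15780 tested genes (31.5% in either direction). With normexp, however, Abcb1a passed as higher (0.62, adjusted p = 0.0103) and Abcc4 missed the threshold (-0.74, adjusted p = 0.0916). Of 4 uptake genes 1 was lower and 1, the saturated Slco1b2, higher. The median difference was -1.42 for efflux and 0.79 for uptake genes, beside 0.29 for all tested genes. It was -0.82 and 0.06 on slide 1, and -1.63 and 0.84 on slide 2. The efflux median is the value of Abcb1a, and with that gene at its bound the median was -1.10. The uptake median is an upper limit, since Slco1b2 is one of its middle values, and was 0.45 over the other 3 genes. Efflux minus uptake was -2.21, and it was negative under each alternative tried, but -0.96 with normexp, -1.03 on the series table values and -1.46 with quantile normalization, where the uptake median was -0.05. The contrast between uptake and efflux was not tested, since each side is a few genes on the same 4 arrays.

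By brightest probe, the lists of other uptake and efflux genes gave no such split. Of 35 other Slco and Slc22 genes on the array 21 were tested, 3 of them higher and 1 lower, with a median of 0.26. The higher genes were Slc22a7, an organic anion carrier of hepatocytes, at 1.08 (adjusted p = 0.0398), Slco3a1 at 1.41 (adjusted p = 0.0333, 0.144 with the array median) and Slc22a13 at 2.08 (adjusted p = 0.0324), which was well above background on 1 of 2 LB1 arrays and missed the threshold with quantile normalization (adjusted p = 0.0770). Slc22a7 missed it with normexp (0.50), quantile normalization (0.74), the array median (0.45) and cyclic loess (0.66), and without any 1 of the 4 arrays (adjusted p of 0.0579 to 0.254). Slc22a30 fell by 0.95 (adjusted p = 0.0316). Dimmer probes passed at Slc22a18, lower at -1.27 (adjusted p = 0.0242), and at Slc22a15, higher at 2.69 (adjusted p = 0.0216). The Slc22a15 probe was well above background only in LB1. Their brightest probes had the opposite sign, at 0.56 and -0.31, and did not pass (adjusted p = 0.141 and 0.583).

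Of 18 other genes listed as efflux 13 were tested. The list holds further Abcb, Abcc and Abcg genes, Abcc8 among them, and also Slc47 and Slc51 genes. By brightest probe 4 were higher and 0 lower, with a median of 0.67, on the other side of 0 from the efflux members. Abcc8 entered the test only through LB1, and over the other 12 genes 3 were higher and the median was 0.66. Dimmer probes of Abcg8 and Abcc9 passed as lower. Abcg8 was at -1.63 (adjusted p = 0.0212), well above background on all 4 arrays. Abcc9 was at -0.82 and -1.56 (adjusted p = 0.0490 and 0.0398), with LB1 well above background on 1 and 0 arrays. Their brightest probes, at -0.73 and -1.16, did not pass (adjusted p = 0.0747 and 0.0703). Abcb11, the bile salt export pump, was higher by 0.92 (adjusted p = 0.0359, 0.0529 with the replicate block), and Abcb4, which moves phosphatidylcholine into bile, by 0.88 (adjusted p = 0.0487, 0.0566 with the replicate block). Both are canalicular like Abcg2. With quantile normalization Abcb11 was at -0.37 (adjusted p = 0.210), and under normexp, the array median and cyclic loess it was at 0.32, 0.28 and 0.13. Abcb4 was at 0.30, 0.11, 0.25 and 0.15 with normexp, quantile normalization, the array median and cyclic loess, and neither gene passed in those settings. The probes of Abcc1 disagreed. The brightest was higher by 1.07 (adjusted p = 0.0489), another by 0.98 (adjusted p = 0.0406), and the third passed as lower at -1.09 (adjusted p = 0.0498), where LB1 was not well above background. The brightest Abcc1 probe missed the threshold with quantile normalization (0.65), the array median (0.44) and cyclic loess (0.78). Abcc8, a subunit of potassium channels, was at least 4.51-fold higher in LB1 at its brightest probe, well above background only there. That probe was dim, at 7.59 and 3.30 on the control arrays and 14.8 and 9.46 on the LB1 arrays. The other Abcc8 probe was well above background on no array and was not tested.

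Among 18 tested regulators and membrane anchors 3 were higher and 2 lower, with a median of 0.39. The aryl hydrocarbon receptor Ahr, a known activator of Abcg2, fell by 1.36 (SE 0.24, adjusted p = 0.0239), from 2539 and 2865 to 332 and 231 in processed signal. Rdx, the radixin that anchors Abcc2 at the canaliculus, was lower by 1.16 at its brightest probe (adjusted p = 0.0382), but its probes disagreed. A dimmer Rdx probe, at -1.82, missed the threshold (adjusted p = 0.0565, 0.0333 with the replicate block), and another, well above background only in LB1, was at least 8.20-fold higher there. Among the higher genes were Foxa2, at 1.26 (adjusted p = 0.0285), and Rxra, at 0.90 (adjusted p = 0.0344, 0.0511 with the replicate block). Rxra was at 0.30 with normexp, 0.45 with quantile normalization, 0.28 with cyclic loess and 0.26 with the array median, passing in none of them, and its other probe was at -0.060. Foxa2 missed the threshold with the array median (0.63, adjusted p = 0.233) and with quantile normalization (0.96, adjusted p = 0.0509). The receptors PXR and CAR did not pass, at 1.02 (adjusted p = 0.0649) and -0.20 (adjusted p = 0.504). The NRF2 gene was at -0.73 and -0.61 at its brighter probes, which did not pass (adjusted p = 0.107 and 0.155), and at -1.80 at its dimmest one, which did (adjusted p = 0.0212).

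Of 10 tested enzymes known as targets of CAR, PXR, Ahr or NRF2, 2 were lower and 1 higher, with a median of 0.08. Cyp2b10, the usual target of CAR, fell by 1.82 (adjusted p = 0.0211), and Cyp3a11, a target of PXR, by 1.33 (adjusted p = 0.0267), a lower limit of its fall because both control arrays were saturated. The higher enzyme, Gstm1, was saturated on all 4 arrays and has no settled direction. Cyp1a2, a target of Ahr, was at -0.16 (adjusted p = 0.577). Over the 4 related lists 16 genes passed, and 17 with the replicate block. Leaving out control replicate 1 or control replicate 2 removed almost all of these calls, as it did over the whole array.

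**Figure D4:**
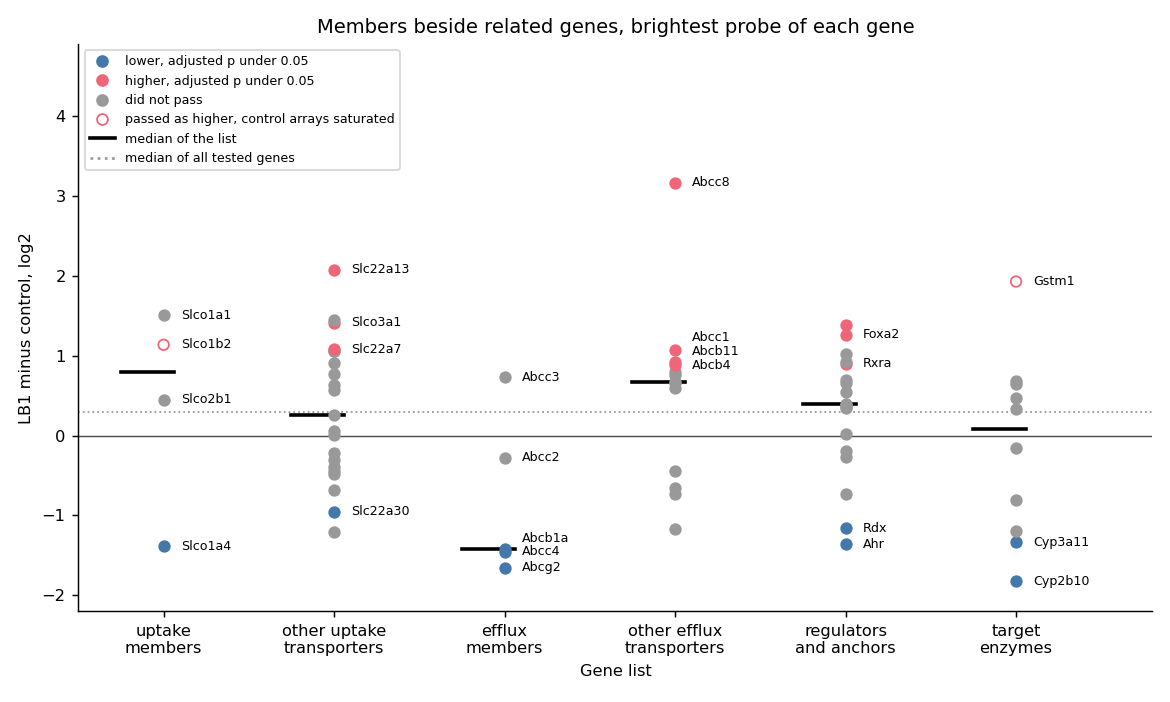
LB1 minus control (log2, y axis) at the brightest probe of each gene in the uptake and efflux members and in 4 related lists (x axis). The thick line is the list's median and the dotted line the median of all tested genes (0.29). The efflux members have their median at -1.42 and the other efflux transporters at 0.67. Open circles passed as higher with saturated control arrays and have no settled direction.

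Liver identity held on every array, since 9 of 9 hepatocyte markers on the array were well above background on each. Their median difference of 0.01 is the value of Tat, saturated on both control arrays, and is an upper limit. Ttr, Apob and Tdo2, saturated on no array, were at -0.13, -0.60 and -0.74 and did not pass. Of the 9 markers 3 passed as higher, all saturated on the control arrays, and 1 as lower. Slco1a4, Abcg2 and Abcb1a are also known from vessel endothelium. The 9 markers of sinusoidal and other endothelium had a median of -0.28, with 1 higher and 1 lower. Summed over these markers, the level relative to the 75th percentile was 45.2 and 49.4 in control and 46.3 and 37.6 in LB1. Such sums are weighted to the brightest probe of a list, here Clec4g, and do not describe each of its markers. Mesothelial markers moved with the group: 5 of 6 tested were higher, although 4 of the 6 entered the test only through LB1. The 2 markers well above background on all arrays, Msln and Gpm6a, were higher by 6.04 and 3.28. The summed level of the list was 1.25 and 0.168 in control and 11.2 and 35.5 in LB1. Of the other lists, 3 of 5 tested cholangiocyte markers were higher and 1 lower. Krt19, 1 of the higher ones and tested only through LB1, is counted among the mesothelial markers as well. In the remaining lists 3 of 4 lymphocyte and 2 of 6 stellate cell markers were higher, and 1 of 8 Kupffer cell markers was lower. Both tested erythroid markers were higher. Hba-a1 was saturated on 1 LB1 array and on no control array. Summed levels, mostly from Hba-a1, were 157 and 90.5 in control against 542 and 625 in LB1. The part of these cells in the transporter values was not tested.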

How the data were processed

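Each file holds spot intensity from 1 array. Per the file headers, the deposited intensity was extracted with Feature Extraction 10.5.1.1 on scanner G2505C, with background removed and detrended within each array and nothing done between arrays. The design text names other versions of both. The deposited series table holds the mean spot intensity, whole numbers within 0.5 of the scanner's mean signal in 100% of spots.

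Control spots and outlier spots were left out, each array's 75th percentile was subtracted on the log2 scale, and spots of a probe were averaged. Probes entered the test if either group had both arrays well above background. The fit used limma 3.58.1 (lmFit, eBayes; R 4.3.3), adjusted by Benjamini-Hochberg over 22974 probes, and an adjusted p under 0.05 is called. Tested on simulated data with this layout, the fit found 31 of 50 probes given an 8-fold change and 43 of 50 given 16-fold. It found 2 given 4-fold and 0 given 2-fold, beside 3 false calls. Each change was given to 50 of 22958 simulated probes, against 32.4% of probes called in the data. The adjustment was stricter in the simulation, so these counts do not give the recovery in the data.

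The members and lists were chosen with earlier results of these data known. Named were every member and, of each related list, the called genes with the smallest p (up to 4 per direction), plus Abcb11, Abcb4 and Slc22a7. Some genes and a motif under this rule are not reported here. Other genes are given as levels of a factor or close relative named in the text, chosen after their values were seen. Probe names are those of the files, updated through RefSeq of GRCm38.p6 for 25001 probes by accession. Promoter sequences are RefSeq's of that assembly, and mm9 probe positions come from the files and count from 1. Replicate number, slide and scan coincide. Deviations of same-numbered arrays from their group means correlated at 0.151 across probes. Animals were separate, but extraction batches are not given in the sources used here.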

Additional observations from a re-analysis of the deposited data

How the results depend on the processing

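Of the results with a direction, the falls at Abcg2 (both probes) and at Slco1a4 kept their direction and their side of the threshold under every alternative to the scaling, filter and fit that was run with limma, and lost it without either control replicate (Slco1a4 also without LB1 replicate 2). The count of called probes over the array, 7439 in the main setting, was 15996 with normexp, 14446 on the series table values, 20683 without a filter, 4109 by the methods' t-test with 2-fold and 0 after Benjamini-Hochberg (7012 at an unadjusted p under 0.05), and ran from 1 to 11029 when single arrays were left out. Transporter probes called numbered 6, 0 by the methods' t-test after adjustment (5 unadjusted), and 0 to 8 when single arrays were left out. Efflux minus uptake, -2.21, was -0.96 with normexp, -1.46 with quantile normalization, -1.66 with a filter on all 4 arrays, -1.03 on the series table values, -1.59 with cyclic loess and -1.74 with the mean over a gene's probes, and ran from -2.41 to -1.59 without single arrays. Genes called over the 4 related lists numbered 16, but 33 with normexp, 10 with quantile normalization, 26 with the filter on all 4 arrays, 37 on the series table values and 0 to 27 without single arrays. Signs turned at Slco2b1 with normexp (-0.12), the array median (-0.19) and cyclic loess (-0.031), at the dimmer Abcc4 probe with normexp (1.16), the series table (0.92), without LB1 replicate 2 (0.47) and on slide 1 (1.02), at Abcb1a with normexp (0.62) and the series table (0.26), at Slco1b2 (-0.19) and Abcb11 (-0.37) with quantile normalization, at the dimmer Slco1a1 probe with the array median (-0.084), without LB1 replicate 2 (-0.46, against 1.56 without LB1 replicate 1) and on slide 1 (-0.89), and at the brighter one on slide 1 (-0.29). Fewer residual samples or fewer tested probes enter by construction where arrays or probes were left out. For the other changes the cause was not tested. The replicate block gave 6959 calls over the array and, among the transporter probes, changed the call of the upstream Abcc3 probe (adjusted p = 0.0400) and no other. Dim probes are limited by background: Abcb1a and the dimmer Abcc4 probe were not well above it on both or 1 of the LB1 arrays.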
